A study of Homo sapiens with 4 samples.

Results

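The nuclear genes for the subunits of the mitochondrial respiratory chain and ATP synthase were followed in BEAS-2B cells with and without formaldehyde. The rule that takes them reads gene names and no measured value. A gene was taken if its name begins with NDUFA, NDUFB, NDUFC, NDUFS or NDUFV (complex I), is SDHA, SDHB, SDHC or SDHD (complex II), or begins with UQCR (complex III), COX4I, COX5, COX6, COX7 or COX8 (complex IV) or ATP5 (complex V, the ATP synthase). Assembly factors named NDUFAF, pseudogenes and antisense names were left out. This gave 89 of 23004 gene names, of which 40 belong to complex I, 4 to complex II, 9 to complex III, 17 to complex IV and 19 to complex V. A mean of at least 1 FPKM (fragments scaled by transcript length and by the mapped depth of the library) over the 4 libraries was reached by 82 of the 89 and by 12407 genes in all, and only these were tested.

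BEAS-2B is a line of human bronchial epithelial cells immortalized with viral genes, used here as 1 line, and the labels name no genetic change in either group. Total RNA came from 2 untreated libraries and from 2 libraries of cells exposed to 100 µM formaldehyde, a reactive aldehyde, for 48 h. Whether the replicates came from separate cultures is not given, so a p-value here reflects only how the 4 libraries vary, and that variation may be technical. The question was which genes answer to the aldehyde. Mapped depth, recovered from the deposited values, was 14.2 to 26.5 M fragments per library (M, mega). Libraries numbered 1 were the shallower ones, with 14.2 M after formaldehyde and 16.8 M when untreated. Those numbered 2 reached 22.2 M after formaldehyde and 26.5 M when untreated, so depth went with the replicate number. Of the epithelial markers, KRT7, KRT8 and KRT18 were at 140.1 to 531 FPKM, EPCAM at 0.983 to 3.18 FPKM, and KRT5 was listed at 0. Barely detected, KRT19 ranged from 0.0533 FPKM (formaldehyde replicate 2) up to 0.378 FPKM (untreated replicate 2). Unlike the keratins at high levels, KRT19 had its lowest values in the formaldehyde libraries. Summed over 6 genes, these markers came to 709 and 640.0 FPKM in the untreated libraries and 1339 and 1156 FPKM in the formaldehyde libraries. The summed level of 6 fibroblast markers, nearly all of it COL1A1, was 301 and 599.6 FPKM without formaldehyde, then 145 and 277 FPKM with it. Leukocyte markers (6 genes) summed to 4.08 to 12.2 FPKM, with CD3E at 0, and 3 endothelial markers to 0.0794 to 0.18 FPKM. The part of these marker differences in the subunit values was not tested. Throughout, a pair of values stands for replicate 1 and then replicate 2 of a group. The labels do not say what the shared replicate number marks.

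The respiratory chain passes electrons from NADH through complex I and from succinate through complex II to ubiquinone, then through complex III and cytochrome c to complex IV, where oxygen is reduced. Complexes I, III and IV pump protons across the inner mitochondrial membrane, and complex V lets them flow back to make ATP. Most subunits are encoded in the nucleus, and a small core is encoded in mitochondrial DNA, whose transcripts were not analysed here. The nuclear genes are known targets of NRF1 and of ETS-family factors such as GABP (also called NRF2), which bind close to the start site.

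The start-site sequences are shown because these motifs are what the genes of different complexes are known to share. RefSeq promoters (GRCh38.p14, 250 bases before to 50 bases after the start) were found for 70 of the 89 genes by symbol or older symbol. The NRF1 motif (GCGCA, any base, then GCGC), searched on both strands, was present in 16 of the 70 promoters (22.9%) and in 6.29% of all 27305 promoters. The ETS motif CCGGAAG was present in 19 (27.1%) against 10.7%, and a motif of the factor YY1 (AAGATGG followed by CGG) in 7 (10%) against 1.28%. NRF1 and ETS matches printed here do not overlap each other. A match describes letters only and is not a bound site. Every promoter printed here carries a match, whereas 35 tested genes with a promoter carry neither an NRF1 nor an ETS match. The shares were not adjusted for GC content, which was 57.5% (SDHD) to 75.2% (SDHA) in the printed windows. The windows end at the base before the start, run 5′ to 3′ on the strand of the gene, and carry NRF1 and ETS matches in capitals, with CTTCCGG being the ETS motif on the other strand.
SDHA (250 bases, chr5:218070-218319, plus strand): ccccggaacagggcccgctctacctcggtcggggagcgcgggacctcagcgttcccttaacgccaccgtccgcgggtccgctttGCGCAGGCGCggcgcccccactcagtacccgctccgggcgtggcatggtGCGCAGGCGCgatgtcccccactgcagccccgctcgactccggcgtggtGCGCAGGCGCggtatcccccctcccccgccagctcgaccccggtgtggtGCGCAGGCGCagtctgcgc
SDHD (120 bases, chr11:112086753-112086872, plus strand): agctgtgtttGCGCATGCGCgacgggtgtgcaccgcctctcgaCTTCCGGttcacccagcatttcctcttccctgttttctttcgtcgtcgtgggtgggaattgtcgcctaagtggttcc
NDUFA3 (120 bases, chr19:54102735-54102854, plus strand): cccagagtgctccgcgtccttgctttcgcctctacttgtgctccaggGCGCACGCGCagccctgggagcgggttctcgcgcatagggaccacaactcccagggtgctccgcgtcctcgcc
UQCRC1 (120 bases, chr3:48609647-48609766, minus strand): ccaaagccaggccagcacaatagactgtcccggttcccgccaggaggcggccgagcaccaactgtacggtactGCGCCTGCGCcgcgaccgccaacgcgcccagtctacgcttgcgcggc
COX6A1 (120 bases, chr12:120437993-120438112, plus strand): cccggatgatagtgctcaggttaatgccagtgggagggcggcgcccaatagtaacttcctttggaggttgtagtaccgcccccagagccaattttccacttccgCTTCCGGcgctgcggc
ATP5C1, in RefSeq ATP5F1C (120 bases, chr10:7788057-7788176, plus strand): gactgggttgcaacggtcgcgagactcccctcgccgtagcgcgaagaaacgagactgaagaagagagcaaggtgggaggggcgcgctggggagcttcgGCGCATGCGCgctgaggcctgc
SDHA carried 4 NRF1 matches, whose first bases lay at -166, -117, -68 and -19 from the start. SDHD carried 1 NRF1 match at -110 and 1 ETS match at -77. The other matches shown lay at -73 in NDUFA3, -47 in UQCRC1, -16 in COX6A1 (ETS) and -22 in ATP5C1. The median log2 fold change between the groups was 0.11 over the 31 tested genes with an NRF1 or ETS match and 0.10 over the 35 with a promoter and no match, and the median of untreated replicate 1 minus replicate 2 was 0.48 and 0.56.

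Respiratory chain transcripts were abundant in both groups and differed little between them. Together the 89 genes made up 2.76% and 2.27% of all FPKM in the untreated libraries and 2.54% and 2.5% in the formaldehyde libraries, so the formaldehyde libraries lay between the untreated ones. No gene of the 82 tested passed an adjusted p of 0.05 in limma (lowest adjusted p 0.9999), where 0.153% of all tested genes did. Among genes of at least 300 nt, a limit that kept all 82, 1 of 12015 did. None of the 82 passed an unadjusted p of 0.05 either, where 2.76% of all tested genes did. The lowest unadjusted p of the 82 was 0.0984 for NDUFV3 in limma. A p that misses the threshold does not show that the levels were equal. An exact permutation test of 1 value with 2 libraries against 2 cannot give less than 0.33.

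All differences below are on the scale log2(FPKM + 1), formaldehyde minus untreated, with n = 2 libraries per group and the standard error (SE) from limma. Levels are FPKM, and in bulk RNA fewer cells with a transcript and less of it per cell cannot be told apart. The median difference over the 82 genes was 0.11 and that of all tested genes 0.03, with a range from -0.17 to 0.54 over the 82. By sign, 62 of the 82 were above 0, where 55.1% of all tested genes were. The count moved with the scaling of libraries, as did the share of all tested genes. It was 53 (all genes 48.8%) with median-of-ratios scaling, 50 (45.1%) with equal FPKM sums and 46 (49.9%) with quantile normalization. The groups did not overlap for 5 genes with higher values in formaldehyde (NDUFB9, NDUFV3, UQCRC1, COX4I1 and COX5A), against 16.2% of all tested genes, and for 1 gene with lower values (SDHA), against 10.7%.

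The libraries of 1 group differed more than the groups did. The median absolute difference between the untreated libraries was 0.52, between the formaldehyde libraries 0.27, and between the group means 0.12. For 71 of the 82 genes the difference between groups was smaller than the difference between the untreated libraries, and for 59 it was smaller than that within either group. The share of all tested genes was not computed for these counts. A difference between group means varies less than one between single libraries, so these values do not set the subunit genes apart. Untreated replicate 1 lay above untreated replicate 2 for 67 of the 82 genes, where 58.3% of all tested genes did, and formaldehyde replicate 1 above formaldehyde replicate 2 for 59, where 49.5% did. The sign of the median depended on which untreated library was used. It was 0.34 without untreated replicate 1, -0.14 without untreated replicate 2, 0.02 without formaldehyde replicate 1 and 0.19 without formaldehyde replicate 2.

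**Figure D1:**
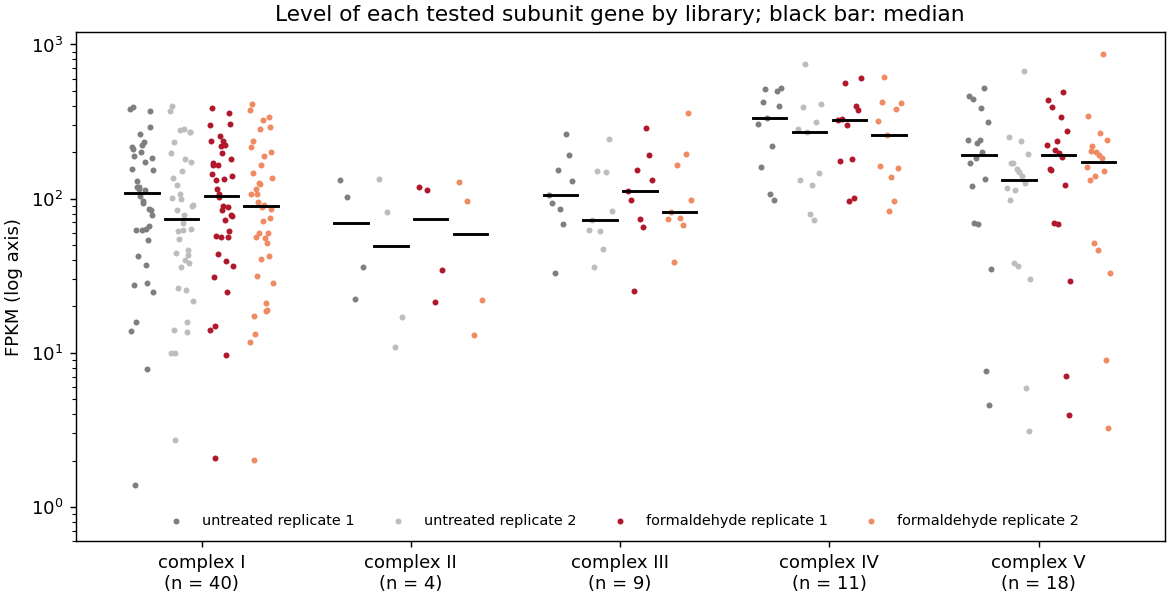
FPKM of each tested gene (points, log axis) by complex and library, with the median of a library as a black bar; n is the number of genes. In each complex the medians of the 4 libraries lie close together next to the spread of the genes, and the lowest bar is that of untreated replicate 2 except in complex IV.

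Complexes were compared in each replicate number in turn. In the first, formaldehyde minus untreated had a median of -0.02 in complex I, -0.06 in complex II, 0.00 in complex III, -0.09 in complex IV and -0.11 in complex V. In the second, the medians were 0.21, 0.24, 0.25, 0.13 and 0.36 in the same order. The first replicate thus gave medians from -0.11 to 0.00, and the second gave all 5 above 0. Values were higher with formaldehyde for 34 of the 82 genes in the first replicate, where 45.9% of all tested genes were, and for 75 in the second, where 62.3% were. They were higher in both for 30, where 31.2% of all tested genes were. They were lower in both for 3 genes (NDUFV1, SDHA and COX6B1), where 22.6% of all tested genes were. The medians of all tested genes were -0.03 in the first replicate and 0.10 in the second. The differences between replicates were widest in complex V, where 4 of 18 genes were higher in the first replicate and 18 of 18 in the second.

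**Figure D2:**
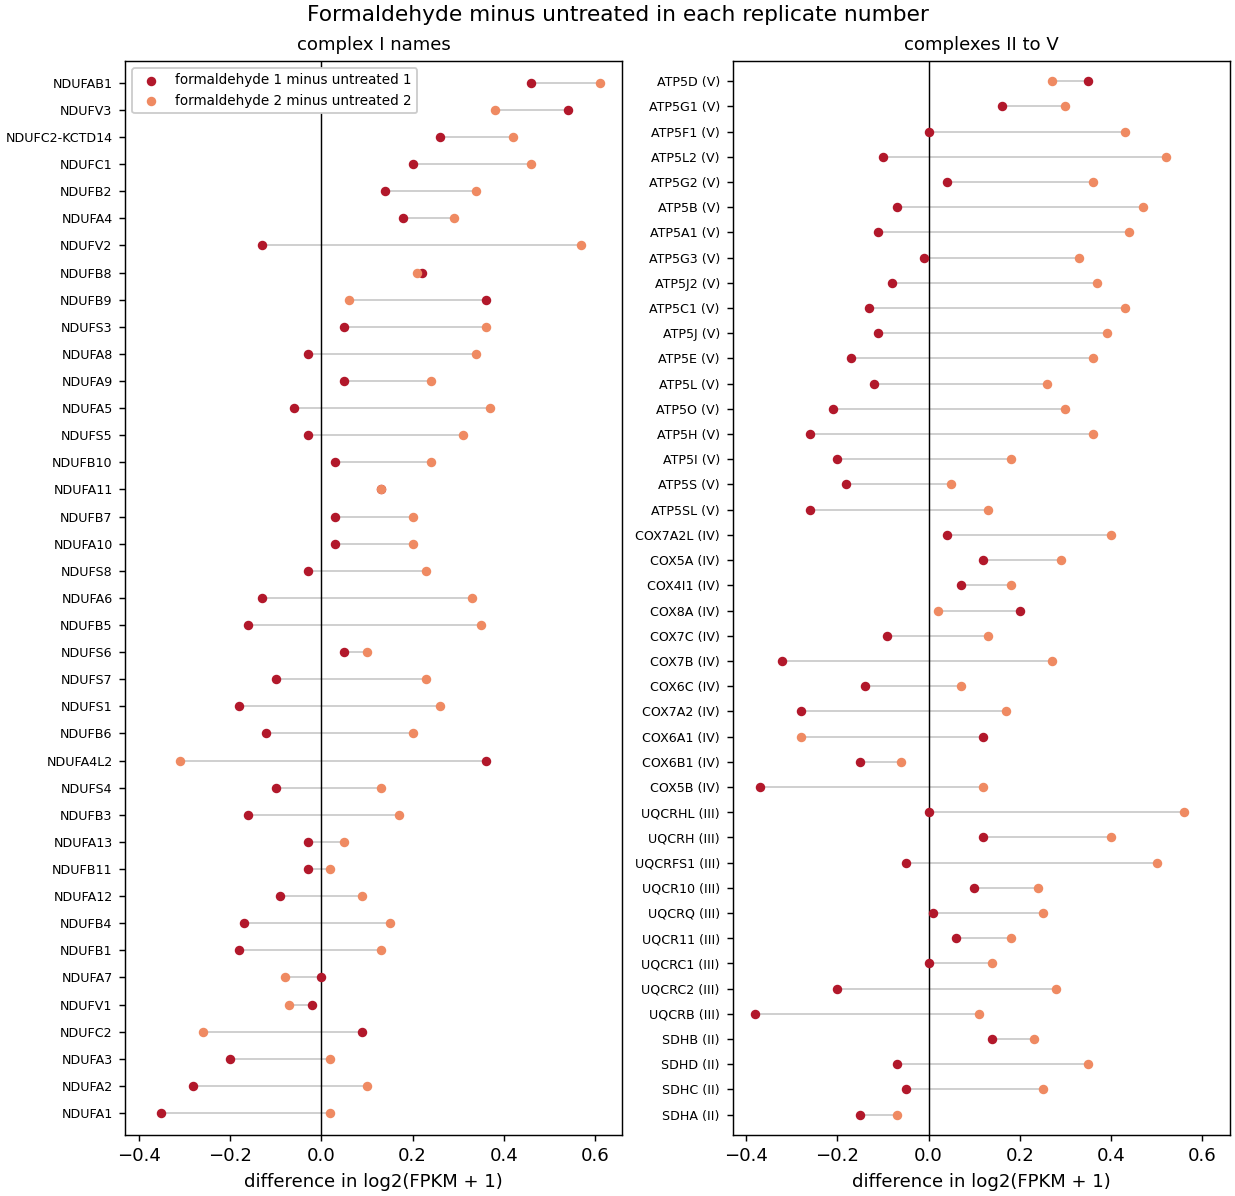
Formaldehyde minus untreated on log2(FPKM + 1) for the tested genes except 1 that is not shown, with replicate 1 in dark red and replicate 2 in orange, joined by a grey line; genes are ordered by log2 fold change within a complex, and the vertical line marks 0. Most orange points lie to the right of 0, and the dark red points lie on both sides of it.

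By complex, the median log2 fold change over the group means was 0.10 for the 40 genes of complex I, 0.12 for the 4 of complex II, 0.13 for the 9 of complex III, -0.02 for the 11 tested of complex IV and 0.15 for the 18 tested of complex V. Under the 3 other scalings the medians of complexes I, II, III and V stayed between 0.02 and 0.11, and that of complex IV between -0.12 and -0.07. Leaving out untreated replicate 2 brought all 5 below 0 (-0.09, -0.23, -0.08, -0.18 and -0.23), and leaving out untreated replicate 1 brought all 5 above 0 (0.32, 0.47, 0.31, 0.29 and 0.39). Without formaldehyde replicate 1 complex II was at -0.11, and without formaldehyde replicate 2 complex IV was at 0.13. The difference between complexes was not tested.

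Complex I holds a core that carries the flavin, the iron-sulfur clusters and the ubiquinone site, and many accessory subunits. All 40 genes passed the filter, and 31 had a log2 fold change above 0, where 55.1% of all tested genes did. The summed level of the 40 was 5285 and 4415 FPKM without formaldehyde, then 5217 and 4931 FPKM with it. The 7 nuclear core genes had a median of 0.10, with 6 above 0. NDUFV1, the flavin-binding subunit, was the one below 0 (named after its values were seen), with 78.7 and 89.5 FPKM without formaldehyde, then 77.3 and 85.2 FPKM with it (-0.05 ± 0.21, SE).

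The highest fold change was that of NDUFAB1 (hg19 chr16:23592335-23607639), the mitochondrial acyl carrier protein, with 119.8 and 61.9 FPKM without formaldehyde, then 165 and 95.1 FPKM with it. Formaldehyde was higher in each replicate, by 0.46 and 0.61, but formaldehyde replicate 2 lay below untreated replicate 1, so the groups overlapped, and the log2 fold change was 0.54 ± 0.44 (SE). NDUFV3 (hg19 chr21:44313378-44329773), a small accessory subunit next to the flavin module, had 24.9 and 21.5 FPKM without formaldehyde, then 36.7 and 28.3 FPKM with it. Here both formaldehyde libraries lay above both untreated ones, under each of the 3 other scalings too, and the log2 fold change was 0.46 ± 0.23 (SE), with an adjusted p of 0.9999 in limma. NDUFC2-KCTD14 (hg19 chr11:77726761-77791265), a readthrough name that overlaps NDUFC2, had 7.89 and 13.6 FPKM without formaldehyde, then 9.66 and 18.5 FPKM with it. NDUFC2 itself had 37.1 and 25.4 FPKM without formaldehyde, then 39.6 and 21.1 FPKM with it. Reads of this pair were divided by the authors' software, and their sum was 45.0 and 39.0 FPKM without formaldehyde, then 49.2 and 39.7 FPKM with it, a log2 difference of 0.07. NDUFB9 (hg19 chr8:125551343-125562227), an accessory subunit of the membrane arm named after its values were seen, had 173 and 181 FPKM without formaldehyde, then 223 and 189 FPKM with it. Both formaldehyde values were above both untreated ones, by a log2 fold change of 0.21 ± 0.22 (SE), but not with median-of-ratios scaling or quantile normalization.

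The lowest fold changes in complex I belonged to NDUFA1, NDUFA3 and NDUFA2, all accessory subunits. NDUFA1 (hg19 chrX:119005734-119010629) had 381 and 369 FPKM without formaldehyde, then 298 and 374 FPKM with it, and only formaldehyde replicate 1 stood below the rest (-0.17 ± 0.25, SE). Under each of the 3 other scalings both of its formaldehyde values lay below both untreated ones. NDUFA2 had 209 and 137 FPKM without formaldehyde, then 171 and 146 FPKM with it (-0.09 ± 0.29, SE). NDUFA3 had 189.7 and 233 FPKM without formaldehyde, then 165 and 237 FPKM with it (-0.09 ± 0.28, SE). In both genes the replicates of a group lay further apart than the group means. NDUFA13, known also as GRIM-19, had the highest mean level of complex I, 399 FPKM, and varied little, with 395 and 399.7 FPKM without formaldehyde, then 389 and 413 FPKM with it. NDUFA4L2, a paralog of NDUFA4 known to be induced by hypoxia, had the lowest, with 1.39 and 2.73 FPKM without formaldehyde, then 2.07 and 2.01 FPKM with it. NDUFA4, which carries a complex I name but is now counted as a subunit of complex IV, had 27.5 and 13.97 FPKM without formaldehyde, then 31.2 and 17.2 FPKM with it, so that replicate 1 was above replicate 2 in both groups.

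Complex II, succinate dehydrogenase, is the only complex with all subunits encoded in the nucleus and also works in the tricarboxylic acid cycle. SDHA (hg19 chr5:218356-256814), the flavoprotein that oxidizes succinate, had 132 and 135 FPKM without formaldehyde, then 119 and 129 FPKM with it. It was the only tested gene of the 82 for which both formaldehyde values lay below both untreated values. The difference was small, at a log2 fold change of -0.11 ± 0.20 (SE) with an adjusted p of 0.9999 in limma, and the order of the libraries held under the 3 other scalings.

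SDHB (hg19 chr1:17345225-17380665), the iron-sulfur subunit, had 102 and 81.8 FPKM without formaldehyde, then 113 and 95.9 FPKM with it (0.18 ± 0.23, SE). Formaldehyde was the higher member in each replicate, but the groups overlapped. SDHC (hg19 chr1:161284166-161334535) and SDHD (hg19 chr11:111957571-111966518) form the membrane anchor. SDHC had 22.3 and 10.8 FPKM without formaldehyde, then 21.5 and 13.1 FPKM with it (0.10 ± 0.42, SE). SDHD had 36.2 and 17.2 FPKM without formaldehyde, then 34.5 and 22.1 FPKM with it (0.14 ± 0.43, SE). In both anchor genes replicate 1 was well above replicate 2 in each group, by 0.98 and 0.68 for SDHC and by 1.03 and 0.62 for SDHD. For SDHA the same differences were -0.03 and -0.11. The anchor genes thus varied between replicates while the flavoprotein gene hardly did.

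Complex III takes electrons from ubiquinol to cytochrome c. All 9 genes passed the filter, and 8 had a log2 fold change above 0, where 55.1% of all tested genes did. UQCRH, the hinge protein, had 264 and 148 FPKM without formaldehyde, then 286 and 196 FPKM with it (0.26 ± 0.38, SE). Its near-identical intronless copy UQCRHL (hg19 chr1:16133657-16134194), with the highest mean of the complex, had 193 and 244 FPKM without formaldehyde, then 193 and 359 FPKM with it (0.28 ± 0.37, SE). Replicate 1 was the higher in UQCRH and replicate 2 in UQCRHL. Since reads of these genes can be assigned to either, their sum is the safer value, and it was 457 and 392 FPKM without formaldehyde, then 479 and 555 FPKM with it. The sums of the formaldehyde libraries were both above those of the untreated libraries, with a log2 difference of 0.28. As a share of all FPKM the groups overlapped, with 0.0892% and 0.0792% untreated and 0.0888% and 0.108% with formaldehyde.

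UQCRFS1, the Rieske iron-sulfur protein, had 68.4 and 47.4 FPKM without formaldehyde, then 65.8 and 67.4 FPKM with it (0.22 ± 0.25, SE), so that untreated replicate 2 alone was low. The core protein gene UQCRC1 (hg19 chr3:48636432-48647098) had 152 and 151 FPKM without formaldehyde, then 153 and 166 FPKM with it. Its groups did not overlap, but the log2 fold change was only 0.07 ± 0.21 (SE), and under each of the 3 other scalings the groups overlapped, with a value of -0.04 under quantile normalization. The other core protein gene, UQCRC2, had 85.7 and 61.9 FPKM without formaldehyde, then 74.2 and 75.4 FPKM with it (0.04 ± 0.24, SE). UQCRB, a ubiquinone-binding subunit with the lowest mean of the complex, had 33.0 and 36.0 FPKM without formaldehyde, then 25.1 and 39.0 FPKM with it (-0.14 ± 0.27, SE), formaldehyde replicate 1 being the lowest library. CYC1, cytochrome c1, is a complex III subunit that the name rule does not take, and it was named after its values were seen. It had 140.7 and 116 FPKM without formaldehyde, then 158 and 130.3 FPKM with it (0.17 ± 0.24, SE).

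Complex IV, cytochrome c oxidase, had the highest levels per gene, with a median of 291 FPKM over its 11 tested genes, against 170 FPKM in complex V, 94.0 FPKM in complex I, 88.4 FPKM in complex III and 62.9 FPKM in complex II. Several of its subunits exist as a widely expressed isoform and a tissue-restricted one. The 10 widely expressed genes summed to 3488 and 2898 FPKM without formaldehyde, then 3342 and 2958 FPKM with it. Their 6 tissue-restricted partners (COX4I2, COX6A2, COX6B2, COX7A1, COX7B2 and COX8C) summed to 0.696 and 1.55 FPKM without formaldehyde, then 0.295 and 0.961 FPKM with it, so that in both groups nearly all of the signal came from the widely expressed isoforms. COX4I2, the lung and hypoxia isoform, COX6A2, a muscle isoform, and COX8C were listed at 0 in all 4 libraries. COX7B2 was listed at 0 in 3 libraries and at 0.133 FPKM in formaldehyde replicate 2. COX7A1, the muscle isoform, had 0.213 and 0.0677 FPKM without formaldehyde, then 0.126 and 0.0806 FPKM with it. COX6B2, a testis isoform, had 0.483 and 1.48 FPKM without formaldehyde, then 0.169 and 0.748 FPKM with it. None of the 6 reached the filter. Muscle markers were at 17.3 to 21.3 FPKM summed over 5 genes, nearly all of it ACTA1, with TNNI2 at 0.

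Among the widely expressed isoforms, COX4I1 (hg19 chr16:85833173-85840607), the subunit 4 gene, had 306 and 282 FPKM without formaldehyde, then 322 and 320.5 FPKM with it. COX5A (hg19 chr15:75212617-75230495), subunit 5A, had 160.2 and 133 FPKM without formaldehyde, then 174 and 162 FPKM with it. In both the formaldehyde values lay above the untreated values, by a log2 fold change of 0.13 ± 0.22 (SE) and of 0.20 ± 0.22 (SE). Quantile normalization made the groups overlap for both, and equal FPKM sums for COX4I1. COX7A2L (hg19 chr2:42577645-42588356), a COX7A-related protein that joins complexes III and IV into supercomplexes, had the highest fold change of the complex, at 0.22 ± 0.24 (SE), with 97.6 and 72.7 FPKM without formaldehyde, then 100.2 and 96.5 FPKM with it. Formaldehyde replicate 2 lay just under untreated replicate 1, so the groups overlapped.

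The lowest fold changes were those of COX5B, COX6B1 and COX6A1. COX5B, the zinc-binding subunit, had 423 and 391 FPKM without formaldehyde, then 328 and 424 FPKM with it (-0.13 ± 0.26, SE), with formaldehyde replicate 1 apart from the other libraries. COX6B1, which binds cytochrome c at the outer face, had 334 and 271 FPKM without formaldehyde, then 301 and 259 FPKM with it (-0.11 ± 0.25, SE) and was lower with formaldehyde in each replicate, with differences of -0.15 and -0.06. COX6A1 had the highest mean of the complex, 609 FPKM, with 515 and 747 FPKM without formaldehyde, then 561 and 614 FPKM with it (-0.08 ± 0.30, SE), and both formaldehyde values lay between the untreated ones. COX8A had 526 and 410.3 FPKM without formaldehyde, then 606 and 415 FPKM with it. COX7B had 499 and 316 FPKM without formaldehyde, then 399 and 382 FPKM with it. COX7A2 had 221 and 123 FPKM without formaldehyde, then 181 and 138 FPKM with it. In these 3 genes replicate 1 was above replicate 2 in each group and the groups overlapped.

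Complex V makes ATP in its F1 head, which the c ring in the membrane drives through a central stalk. Of its 19 genes, 18 passed the filter and 15 had a log2 fold change above 0, where 55.1% of all tested genes did. None of the 18 had groups without overlap, against 16.2% (higher) and 10.7% (lower) of all tested genes. The 5 genes of the F1 head (ATP5A1, ATP5B, ATP5C1, ATP5D and ATP5E) summed to 1437 and 805 FPKM without formaldehyde, then 1365 and 1061 FPKM with it. Both formaldehyde sums lay between the untreated ones, and the median log2 fold change of the 5 genes was 0.17. ATP5D (hg19 chr19:1241749-1244824), the delta subunit of the stalk, had 120.1 and 169 FPKM without formaldehyde, then 153 and 205 FPKM with it and the highest fold change of the complex, 0.31 ± 0.29 (SE). It was higher with formaldehyde in each replicate, by 0.35 and 0.27, and here replicate 2 was the higher library in each group.

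The c ring is encoded by 3 genes whose mature proteins are alike. ATP5G1 had 184 and 113 FPKM without formaldehyde, then 205 and 139.7 FPKM with it (0.23 ± 0.35, SE). ATP5G2 had 229 and 156 FPKM without formaldehyde, then 237 and 199.9 FPKM with it (0.20 ± 0.29, SE). ATP5G3 had 68.6 and 36.7 FPKM without formaldehyde, then 68.2 and 46.5 FPKM with it (0.16 ± 0.38, SE). Replicate 1 was above replicate 2 in both groups for all 3. Their order, ATP5G2 above ATP5G1 above ATP5G3, was the same in all 4 libraries. The peripheral stalk gene ATP5F1 had 69.4 and 38.1 FPKM without formaldehyde, then 69.4 and 51.7 FPKM with it (0.22 ± 0.36, SE).

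ATP5J2 (hg19 chr7:99055784-99063824), a membrane subunit, had the highest mean of all 89 genes, 638 FPKM, with 518 and 673 FPKM without formaldehyde, then 491 and 871 FPKM with it (0.15 ± 0.38, SE), and replicate 2 was the higher library in each group. Its readthrough name ATP5J2-PTCD1 was listed at 0.311 FPKM in untreated replicate 2 and at or near 0 elsewhere and did not pass the filter. The lowest fold changes belonged to ATP5SL, ATP5S and ATP5I, of which ATP5S and ATP5SL carry the name but are not subunits of the enzyme. ATP5SL had 35.2 and 29.9 FPKM without formaldehyde, then 29.2 and 32.7 FPKM with it (-0.07 ± 0.20, SE). ATP5S, with the lowest mean of the tested genes of the complex, had 4.57 and 3.09 FPKM without formaldehyde, then 3.93 and 3.24 FPKM with it (-0.06 ± 0.26, SE). ATP5I, a small membrane subunit, had 387 and 236 FPKM without formaldehyde, then 336 and 267 FPKM with it (-0.01 ± 0.33, SE). In all 3 the groups overlapped. With the highest transcript in place of the sum, the values of ATP5S and ATP5I were 0.40 and 0.20.

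The differences between replicates ran in parallel in the 2 groups. Over the 82 genes, untreated replicate 1 minus 2 went with formaldehyde replicate 1 minus 2 at a Pearson r of 0.84 and a Spearman rho of 0.82, against 0.25 and 0.52 over all 12407 tested genes. These are descriptions across genes that share libraries and depth, and genes are not independent replicates. In both groups replicate 1 was the higher for 57 of the 82 genes, where 37.6% of all tested genes were. The widest differences between the untreated libraries, in 2 genes named after their values were seen, were those of COX7C and ATP5E. COX7C (hg19 chr5:85913784-85916583), a small subunit of complex IV, had 397 and 146 FPKM without formaldehyde, then 373 and 159 FPKM with it. ATP5E (hg19 chr20:57603733-57607422), the epsilon subunit of the F1 head, had 445 and 171 FPKM without formaldehyde, then 395 and 219 FPKM with it. In both genes replicate 1 exceeded replicate 2 in each group, by 1.44 and 1.22 for COX7C and 1.38 and 0.85 for ATP5E, while the log2 fold changes between groups were 0.02 ± 0.64 (SE) and 0.09 ± 0.56 (SE). By log2(FPKM + 1) over the 82 genes, the libraries most alike were those with the same number, untreated 1 with formaldehyde 1 and untreated 2 with formaldehyde 2 (r = 0.993 each), and the other 4 pairs had r of 0.96 to 0.967.

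**Figure D3:**
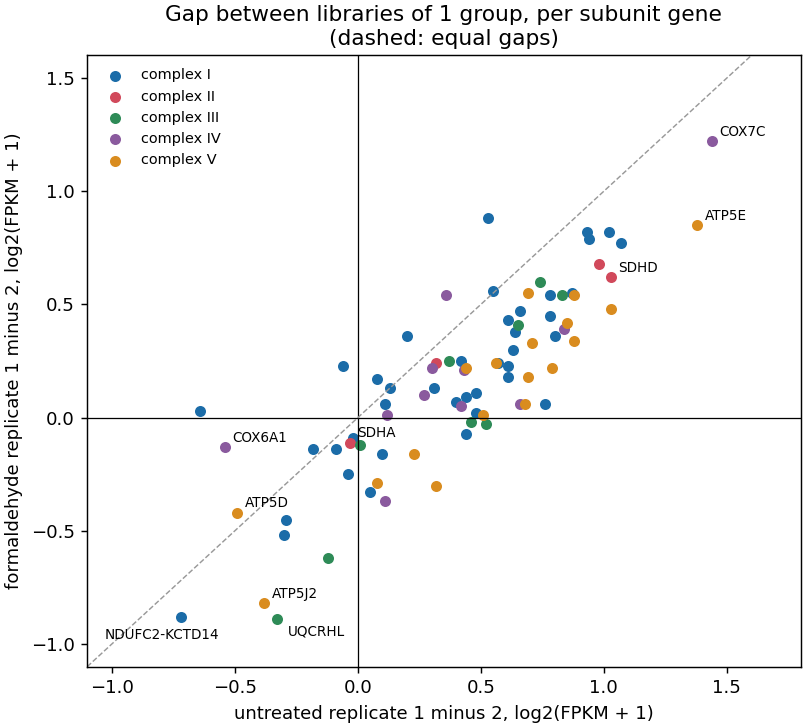
Untreated replicate 1 minus 2 (horizontal) against formaldehyde replicate 1 minus 2 (vertical), both on log2(FPKM + 1), one point per tested gene coloured by complex, with equal differences on the dashed line. Most points lie in the upper right and below the dashed line, with COX7C (1.44 and 1.22) farthest out, and NDUFC2-KCTD14 (-0.72 and -0.88) at the other end.

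The differences between replicates went with base composition. GC content was averaged over the matched transcripts of a gene. Over 81 genes with a matched transcript, the untreated difference had an r of -0.57 with GC content (rho -0.54). Over 11985 of all tested genes it was -0.33 (rho -0.56). For the formaldehyde difference r was -0.33 (rho -0.33), against -0.12 (rho -0.25) for all genes. The log2 fold change between the groups had an r of 0.01 with GC content and of 0.12 with log10 transcript length. The part of base composition in the replicate differences was not tested. Nor was that of mapped depth, which was lower in replicate 1 than in replicate 2 of each group. The subunit genes are short, with a median longest transcript of 926 nt against 2815 nt for all tested genes, and their median GC content was 49.9% against 49.7%. In the 51 tested genes with 1 transcript the number of fragments behind a value ran from 23 to 12707. The median over these genes of the lowest library was 1055 fragments, at which 2 counting errors are 6.16% of the value. 2 genes had under 100 fragments in some library.

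Genes that build the chain, supply it with electrons or regulate it were read from the same fit. None of their lists held a gene at an adjusted p under 0.05 in limma. An unadjusted p under 0.05 was reached by 2 of 30 assembly factors of complexes II to V (SCO2 and PET117). It was also reached by 1 of 19 regulators (ESRRA) and 1 of 76 mitochondrial ribosomal proteins (MRPL32). No gene reached it among 16 complex I assembly factors, 24 carrier and partner genes and 19 tricarboxylic acid cycle and pyruvate dehydrogenase genes. Of all tested genes 2.76% reached it. Of 16 tested complex I assembly factors, 10 had a log2 fold change above 0, where 55.1% of all tested genes did. Their median was 0.06, and 3 had higher values without overlap, where 16.2% of all tested genes did. NDUFAF2, which acts late in the assembly of complex I, had 33.1 and 24.9 FPKM without formaldehyde, then 44.3 and 40.0 FPKM with it (0.54 ± 0.23, SE), with both formaldehyde values above both untreated ones. Of 30 assembly factors of complexes II to V, 23 were above 0 (all tested genes 55.1%), the median was 0.13, and 8 had higher values without overlap (16.2%). SCO2, a copper chaperone of complex IV, had 9.47 and 6.85 FPKM without formaldehyde, then 12.7 and 17.3 FPKM with it (0.80 ± 0.26, SE). PET117, another complex IV assembly factor, had 17.4 and 18.3 FPKM without formaldehyde, then 25.1 and 27.4 FPKM with it (0.53 ± 0.19, SE). Both passed an unadjusted p only, with an adjusted p of 0.9999 in limma, and in both the formaldehyde values were above both untreated values.

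Cytochrome c, ubiquinone synthesis, iron-sulfur and ATP synthase partner genes (24 tested) had a median of 0.06 with 16 above 0 (all tested genes 55.1%). In this list HSCB, an iron-sulfur co-chaperone, had 12.5 and 6.21 FPKM without formaldehyde, then 14.7 and 11.4 FPKM with it (0.50 ± 0.36, SE). ETFDH, which passes electrons from fatty acid oxidation to ubiquinone, had 6.89 and 6.04 FPKM without formaldehyde, then 4.07 and 5.84 FPKM with it (-0.34 ± 0.24, SE), with no overlap of the groups.

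Genes of the tricarboxylic acid cycle and pyruvate dehydrogenase (19 tested) had a median of 0.09, with 14 above 0 (all tested genes 55.1%). Without overlap 3 of the 19 were higher and 2 lower, close to the shares of all tested genes (16.2% and 10.7%). IDH2, the NADP-dependent mitochondrial isocitrate dehydrogenase, had 27.6 and 43.2 FPKM without formaldehyde, then 16.8 and 27.1 FPKM with it (-0.67 ± 0.34, SE). IDH3A, a subunit of the NAD-dependent enzyme of the cycle, had 22.6 and 17.6 FPKM without formaldehyde, then 29.4 and 24.6 FPKM with it (0.42 ± 0.23, SE). IDH2 was thus lower and IDH3A higher than untreated without overlap of the groups, each with an adjusted p of 0.9999 in limma. PC, pyruvate carboxylase, had 3.78 and 5.32 FPKM without formaldehyde, then 2.68 and 3.27 FPKM with it (-0.47 ± 0.25, SE).

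Regulators of mitochondrial gene expression (19 tested) had a median of 0.11 with 11 above 0, where 55.1% of all tested genes were. Without overlap 4 of the 19 were higher and 2 lower, against 16.2% and 10.7%. NRF1, named after its values were seen, had 7.34 and 6.75 FPKM without formaldehyde, then 6.04 and 6.11 FPKM with it (-0.18 ± 0.19, SE). Its groups did not overlap. The GABP genes GABPA, GABPB1 and GABPB2, named likewise, were at -0.24 ± 0.24, 0.16 ± 0.28 and -0.28 ± 0.25 (SE), with overlap. ESRRA, the nuclear receptor ERR alpha that is known to bind promoters of these genes, had 16.4 and 14.6 FPKM without formaldehyde, then 26.5 and 21.6 FPKM with it. Both formaldehyde values were above both untreated ones, the log2 fold change was 0.60 ± 0.21 (SE), and the adjusted p in limma was 0.9999 (unadjusted p 0.0363). C10orf2, the mitochondrial DNA helicase Twinkle, had 8.18 and 6.81 FPKM without formaldehyde, then 10.01 and 10.3 FPKM with it (0.40 ± 0.20, SE). MTERFD3, of the mitochondrial termination factor family, had 5.27 and 5.75 FPKM without formaldehyde, then 4.07 and 3.78 FPKM with it (-0.40 ± 0.20, SE).

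**Figure D4:**
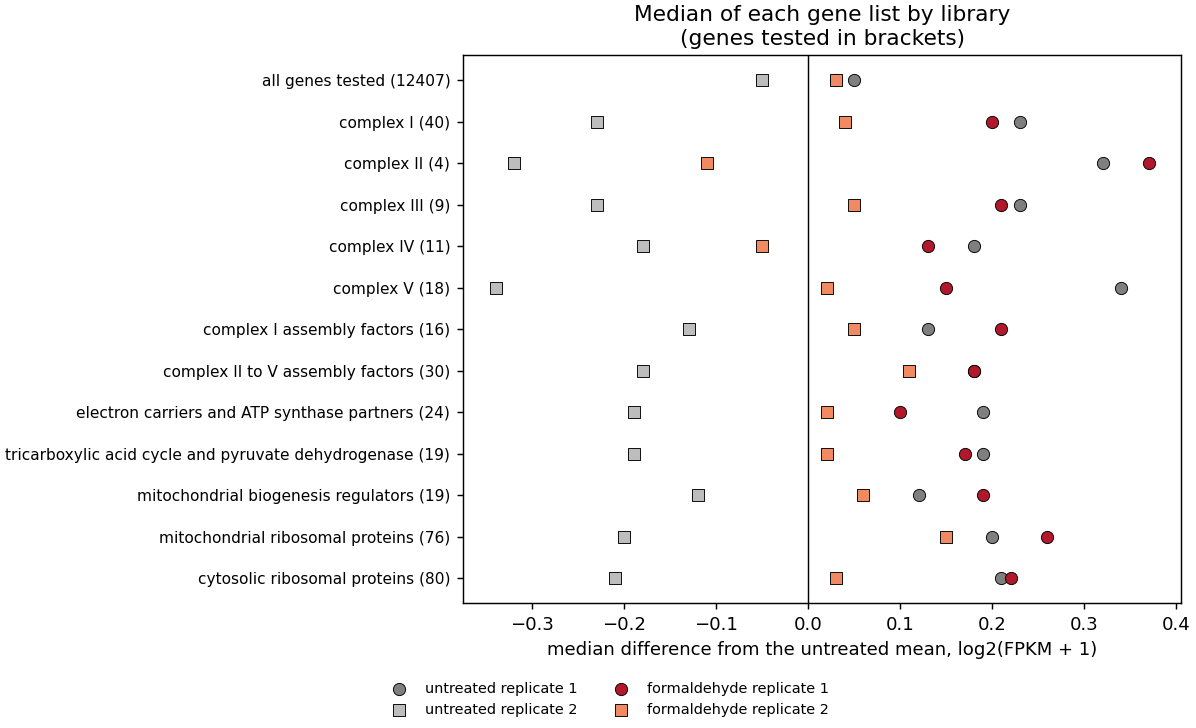
Median over the tested genes of each list of the difference from the untreated mean on log2(FPKM + 1), by library; circles are replicate 1 and squares replicate 2, grey is untreated and red or orange formaldehyde. Untreated replicate 2 is leftmost in each list drawn here, and in every complex the formaldehyde medians lie between the untreated ones or, in complex II, from -0.11 to 0.37; equal values hide formaldehyde replicate 1 in the top row (0.03) and untreated replicate 1 in the assembly factors of complexes II to V (0.18).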

How the data were processed

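Total RNA of 4 BEAS-2B libraries was sequenced. Cufflinks 2.0.2, STAR 2.5.2 and FastQC 0.10.0, with hg19 and GRCh37 as builds, are listed in the submitters' processing notes; how strand and multi-mapped reads were handled is not given in the sources used here. The deposited values are FPKM per transcript, per the file headers, written by the authors as an item of an annotation column that also holds text and other values of no single unit.

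FPKM were summed over the transcripts of each gene name; 894 of 40255 transcripts had no gene name and were left out. The 13 mitochondrially encoded subunits were not analysed here. Genes with a mean of at least 1 FPKM were tested on log2(FPKM + 1), without rescaling, with limma 3.58.1 in R 4.3.3 (lmFit, then eBayes with trend), two-sided, as the formaldehyde mean minus the untreated mean. P-values were adjusted by Benjamini and Hochberg's method over the 12407 genes, with 0.05 as the threshold. The added 1 makes fold changes of low genes too small. The test was checked on simulated data with independent noise and changes larger than those of the subunit genes. That check does not cover differences as small as those seen here. Fragment numbers and depth were recovered from the deposited confidence bounds and coverage; the read length recovered was 51 nt. Percentages beside counts are shares of all tested genes. GC content came from GENCODE 29 transcripts matched by RefSeq accession and promoters from RefSeq (GRCh38.p14). Tables and figures were made with Python 3.11.15, pandas 2.3.3 and matplotlib 3.10.9.

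The genes and lists were chosen with earlier results of these data known, so no list was tested. Genes given with their values were the SDH subunits, the 3 highest and 3 lowest fold changes in each other complex, the highest and lowest mean level per complex, the isoform pairs of complexes IV and V and NDUFA4 with NDUFA4L2, and up to 4 genes per other list with the largest absolute moderated t; not all of the last are printed. Some single genes are not reported here. Alternatives covered the pseudocount, the filter, scaling, transcript length, the highest transcript of a gene, eBayes settings, subunits only, the replicate number and each library left out.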

Additional observations from a re-analysis of the deposited data

How the results depend on the processing

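No subunit gene had an adjusted p under 0.05 in limma under any setting tried (lowest adjusted p 0.649, with the replicate block), and the count at an unadjusted p under 0.05 was 0 in all settings except the block. Over all genes, 19 were called, 0 with no filter on low values (956 at an unadjusted p under 0.05), 1 among genes of at least 300 nt and 46 to 62 with 1 library left out. With the replicate number as a block the median log2 fold change stayed 0.11, 2 subunit genes (NDUFAB1 and NDUFV3) reached an unadjusted p under 0.05 and 29 genes in all were called. With 2 pairs and labels that give only a number, the samples are not taken as paired. Deviations of same-numbered libraries from their group means correlated at 0.84 over the subunit genes and 0.25 over all genes. These are the correlations of the replicate differences given above and not a separate observation. The median of all subunit genes was 0.02 to 0.12 with all 4 libraries and was -0.14 when untreated replicate 2 was left out and 0.34 when untreated replicate 1 was, the extremes of the 4; that of complex IV ranged from -0.18 to 0.29 and that of complex V from -0.23 to 0.39. Genes higher without overlap numbered 5, but 3 with equal FPKM sums, 2 with quantile normalization, 3 among genes of at most 1500 nt and 11 to 61 with 1 library left out. Genes lower without overlap numbered 1, but 2 with no filter, 2 with median-of-ratios scaling, 3 with equal FPKM sums, 3 with quantile normalization, 0 among genes of at most 1500 nt and 4 to 37 with 1 library left out. With 1 library left out its group has 1 library, which is assumed to vary like the other group and overlaps less by construction. The sign of the log2 fold change turned for 18 of 82 genes in some setting with all 4 libraries and for 62 with some library left out. The cause of these shifts was not tested.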

Other observations

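Mitochondrial ribosomal proteins, which translate the subunits encoded in mitochondrial DNA, had a median log2 fold change of 0.20 over 76 tested genes. Of the 76, 67 were above 0, where 55.1% of all tested genes were. In 24 of the 76 both formaldehyde values lay above both untreated values and in 1, MRPL33, below, where 16.2% and 10.7% of all tested genes did so. The medians by replicate number were 0.03 and 0.36. MRPL32, of the large subunit, had 32.6 and 33.8 FPKM without formaldehyde, then 44.8 and 50.8 FPKM with it (0.51 ± 0.19, SE), with an adjusted p of 0.9999 in limma. MRPL4 had 69.4 and 65.8 FPKM without formaldehyde, then 87.6 and 95.9 FPKM with it (0.43 ± 0.20, SE), and MRPS12, of the small subunit, had 58.9 and 50.1 FPKM without formaldehyde, then 73.0 and 72.0 FPKM with it (0.41 ± 0.20, SE). In each of these 3 genes the groups did not overlap.

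Cytosolic ribosomal proteins (80 tested) had a median of 0.12 with 69 above 0, where 55.1% of all tested genes were. Untreated replicate 1 was above untreated replicate 2 in 73 of the 80, where 58.3% of all tested genes were. The sign counts of these lists were taken without rescaling, and that of the subunit genes was lower under the other scalings. A list of 7 tested nuclear, intronic or small RNA genes had a median of -0.19, with medians by replicate number of 0.49 and -0.83. MALAT1, a nuclear long noncoding RNA, had 27.2 and 92.5 FPKM without formaldehyde, then 38.7 and 38.5 FPKM with it, so that untreated replicate 2 alone was high.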
